A study of Mus musculus with 2 samples.

Results

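The genes described here are 9 markers that are used to sort or to name luminal cells of the mouse mammary gland: Kit, Cd14, Cd55, Aldh1a3, Ly6a, Ly6d, Prom1, Epcam and Cd24a. They were chosen by symbol, each symbol matching a single row, and are 9 of the 27998 genes in the deposited tables. The data were single-cell RNA-seq counts from the mammary glands of adult FVB/NJ female mice, an inbred strain, collected at 10 weeks of age with no treatment. Total epithelial cells were sorted as Lin-CD24+, where Lin- means free of the surface proteins TER119 (red cells), CD45 (leukocytes) and CD31 (endothelium), and were captured as a pool of 4 mice in 1 droplet library of 3302 cells. A second library held 4771 sorted basal cells, taken with high CD29 as well as CD24 (Lin-CD29hiCD24+). The mice within a pool were not told apart, so nothing below has a replicate check and no test was run. Intervals in brackets are exact 95% intervals that cover counting error only.

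The mammary duct is built of an outer basal layer of contractile myoepithelial cells and an inner luminal layer. Luminal cells are commonly divided into luminal progenitors (LP), which are rich in milk and defence proteins and form colonies in culture, and mature luminal (ML) cells, which carry receptors for estrogen, progesterone and prolactin. KIT, a receptor tyrosine kinase for stem cell factor, CD14, a co-receptor for bacterial lipopolysaccharide, and ALDH1A3, an enzyme that makes retinoic acid and lies behind ALDH activity assays, are used to enrich progenitors. CD55, a surface protein that limits complement activation, was examined by the study as a further progenitor marker. LY6A (also called SCA1) and PROM1 (CD133), a protein of membrane protrusions, mark hormone-receptor positive luminal cells, and LY6D is a small surface protein of the same LY6 family. EPCAM, an adhesion protein, and CD24, a mucin-like surface protein encoded by Cd24a, separate epithelial from other cells and, by their level, luminal from basal cells. CD14, CD55, CD24 and the LY6 proteins are attached to the membrane by a lipid anchor, whereas KIT, PROM1 and EPCAM span it and ALDH1A3 is inside the cell.

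On the mm10 (GRCm38) assembly, Ly6a (chr15:74994877-74998031) and Ly6d (chr15:74762056-74763620) are both minus-strand genes of the LY6 cluster. Kit (chr5:75574916-75656722, plus strand) and Prom1 (chr5:43993620-44102032, minus strand) share chromosome 5. Cd55 (chr1:130439027-130462744, minus strand), Aldh1a3 (chr7:66390890-66427517, minus strand), Epcam (chr17:87635979-87651129, plus strand) and Cd24a (chr10:43578284-43584265, plus strand) lie on chromosomes of their own among the markers. All are protein-coding in the annotation. Ly6a, Cd24a and Cd55 have close relatives in the genome, and reads shared between near-identical copies are not counted, so their levels may be understated.

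Cells of the total epithelial library were divided by counts of genes outside the marker group. Basal cells had 10 or more counts of Krt5, Krt14 and Acta2 together, ML cells had 10 or more of Prlr, Stc2 and Gpx3, and LP cells were the remaining cells with 3 or more of Krt8, Krt18 and Krt19. This gave 1306 basal cells (39.6%), 766 LP cells (23.2%), 1133 ML cells (34.3%) and 97 unclassified cells (2.94%). Counts per cell ran from 802 to 12967, with medians of 1838.5 in basal, 2483.5 in LP, 3403 in ML and 1184 in unclassified cells. Marker lists that the division had not used were compared between the classes. The 9 progenitor luminal genes (among them Elf5, Csn3 and Lcn2) summed to 74803 CPM (the counts of a gene for every 1000000 counts of all cells of the class) in LP cells against 7410.3 in ML and 5392 in basal cells. The 7 mature luminal genes (among them Esr1, Pgr and Areg) summed to 4486 CPM in ML cells, 383 in LP and 185 in basal cells. Ptprc, Cd52, Laptm5 and Tyrobp of the immune list had no count in any class, whereas Cd74, the fifth gene of that list, had 111 counts in basal cells (40 CPM) and 15 in luminal cells. The fibroblast list did not follow the luminal names, with 1419 CPM in ML cells, 83.4 in LP and 363 in basal cells. Most of it was Dcn, a matrix protein, found in 385 ML cells at 1281 CPM against 76.4 in LP cells, while Col3a1, a collagen, was found in 17 ML cells at 69.7 CPM against 3.71 in LP cells. LP was a class of what remained, however: 116 of its cells had 3 to 9 counts of Prlr, Stc2 and Gpx3, and 26 basal cells also met the ML condition, with a median depth of 4609 counts. In addition, 10 ML cells had fewer than 3 keratin counts and all of them had collagen counts. Without those 10 cells the ratio of ML to LP cells was 5.85 for Ly6a, 8.20 for Ly6d and 17.4 for Prom1, close to the values given below for all ML cells, and the part of other cells in the fibroblast list of the ML class was not tested.

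The 4 progenitor-linked genes had their highest epithelial level in LP cells. Cd14 stood at 2667 CPM (2599 to 2737) in LP cells, 277 (261 to 294) in ML cells and 117 (104.7 to 130.5) in basal cells. Kit stood at 49.6 CPM (40.6 to 59.9) in LP cells, 7.26 (4.90 to 10.4) in ML cells and 2.52 (1.01 to 5.20) in basal cells. Aldh1a3 showed the same order, with 106 CPM (92.4 to 120.3) in LP, 9.68 (6.91 to 13.2) in ML and 1.08 (0.223 to 3.16) in basal cells. LP was above ML beyond counting error in all 3 genes, and ML above basal for Cd14 and Aldh1a3, while the ML and basal intervals of Kit overlapped. Cd55 was less sharply divided, at 109 CPM (95.4 to 124) in LP cells against 44.5 (38.3 to 51.4) in ML and 5.40 (3.02 to 8.91) in basal cells. Of all Cd55 counts in the library, 51.4% lay in LP cells and 40.3% in ML cells, while LP cells held 79.2% of Cd14, 77.8% of Aldh1a3 and 74.3% of Kit counts.

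The 3 mature-linked genes were highest in ML cells among the epithelial classes. Ly6d stood at 3172 CPM (3118 to 3227) in ML cells, 389 (363 to 416) in LP and 157 (143 to 173) in basal cells. Ly6a stood at 573 CPM (550.1 to 597) in ML, 94 (81.6 to 108) in LP and 25.9 (20.3 to 32.7) in basal cells. Prom1 was at 160.4 CPM (148 to 173) in ML cells, and here LP and basal cells could not be separated, with 9.27 (5.66 to 14.3) and 6.84 (4.12 to 10.7). ML cells held 94.3% of the Prom1 counts, 91.1% of those of Ly6d and 85.1% of those of Ly6a.

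The 2 general epithelial markers were found in every epithelial class. Epcam was at 5557 CPM (5458 to 5657) in LP cells, 4707 (4641 to 4773) in ML and 1234 (1193 to 1276) in basal cells, so both luminal classes lay far above basal cells. Cd24a was at 1432 CPM (1395 to 1469) in ML cells but at 640.2 (607 to 675) in LP and 594 (565 to 623) in basal cells, whose intervals overlapped. Since the gate kept cells with CD24 protein, the presence of Cd24a was part of the sort, and only its differences between classes are of interest.

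**Figure D1:**
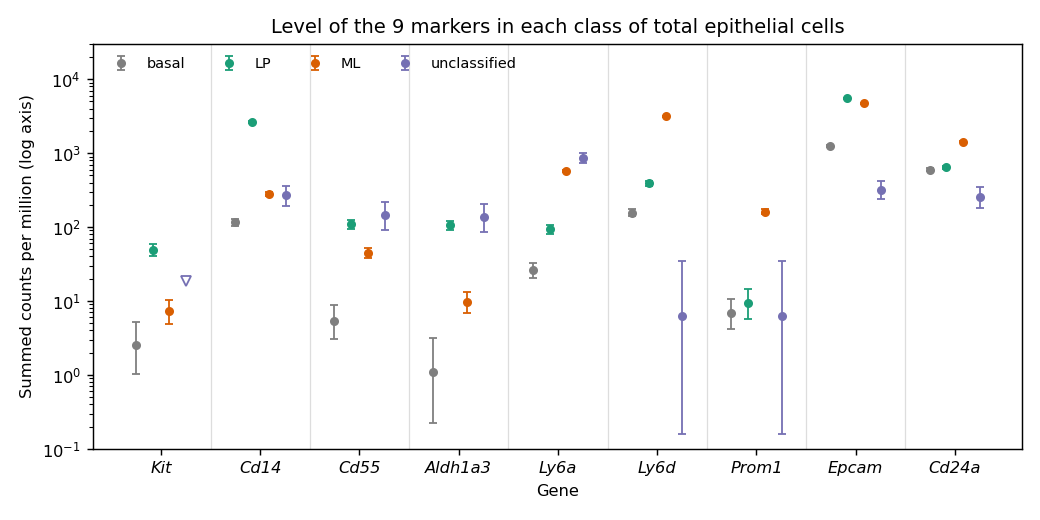
Level of the 9 markers (horizontal axis) as summed CPM on a log axis in basal, LP, ML and unclassified cells, each point with its exact 95% Poisson interval. Kit, Cd14, Cd55 and Aldh1a3 are higher in LP than in ML cells and Ly6a, Ly6d and Prom1 higher in ML than in LP cells. The open triangle stands for Kit in unclassified cells, which had no count. It marks the level of 3 counts there, 18.8 CPM, and not the end of an exact interval.

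Detection in single cells followed the levels. At least 1 count of Cd14 was found in 78.7% of LP cells (75.6 to 81.6), of Cd55 in 23.4% (20.4 to 26.5), of Aldh1a3 in 14.6% (12.2 to 17.3) and of Kit in 11.9% (9.67 to 14.4). Where Kit was detected it mostly rested on a single molecule: 76 of the 91 LP cells with Kit had 1 count, and none had more than 3. Cd14 was of another kind, with 443 LP cells at 3 or more counts and up to 93 in a cell. Aldh1a3 was seen in fewer cells than Cd55 but more often with several counts, with 28 of 112 cells at 3 or more counts against 10 of 179 for Cd55. In ML cells, Ly6d was detected in 86.6% (84.5 to 88.5), Ly6a in 50.6% (47.6 to 53.5) and Prom1 in 33.4% (30.6 to 36.2). Epcam was found in 99.0% of LP, 98.9% of ML and 69.9% of basal cells.

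Free RNA in the droplets can give a count to a cell that does not make it, and no value here measures it directly. Among basal cells 5.13% had Cd14, 4.44% Ly6d, 1.38% Ly6a, 1.15% Prom1, 0.919% Cd55, 0.459% Kit and 0.153% Aldh1a3, at their lower median depth. Of the 67 basal cells with Cd14, 26 had 3 or more counts, as had 24 of the 58 with Ly6d, up to 48 and 107 in a cell. Whether these counts came from free RNA, from droplets with 2 cells or from the cells themselves was not tested. Basal cells with a luminal marker were deeper than the others, with median depths of 2594 counts for those with Cd14 and 4714 for those with Ly6a. The share of ML cells with Kit (2.47%, 1.65 to 3.55) or Aldh1a3 (2.21%, 1.43 to 3.24) was above that of basal cells, yet those cells had median depths of 5435 and 5105 counts.

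Depth itself moved every share. With each cell thinned to 800 counts, Cd14 remained in 60.7% of LP cells (57.1 to 64.2), Cd55 in 7.18%, Aldh1a3 in 6.66% and Kit in 3.39%. In ML cells thinned likewise, Ly6d was left in 68.5% (65.7 to 71.2), Ly6a in 27.4% (24.8 to 30.1) and Prom1 in 10.5% (8.78 to 12.4). Thinning kept the order of LP and ML cells for each of these 7 genes, and in ML cells it lowered Cd14 from 19.2% to 7.15%. A cell without a count of Kit, Cd55, Aldh1a3 or Prom1 therefore cannot be read as a cell without the gene.

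**Figure D2:**
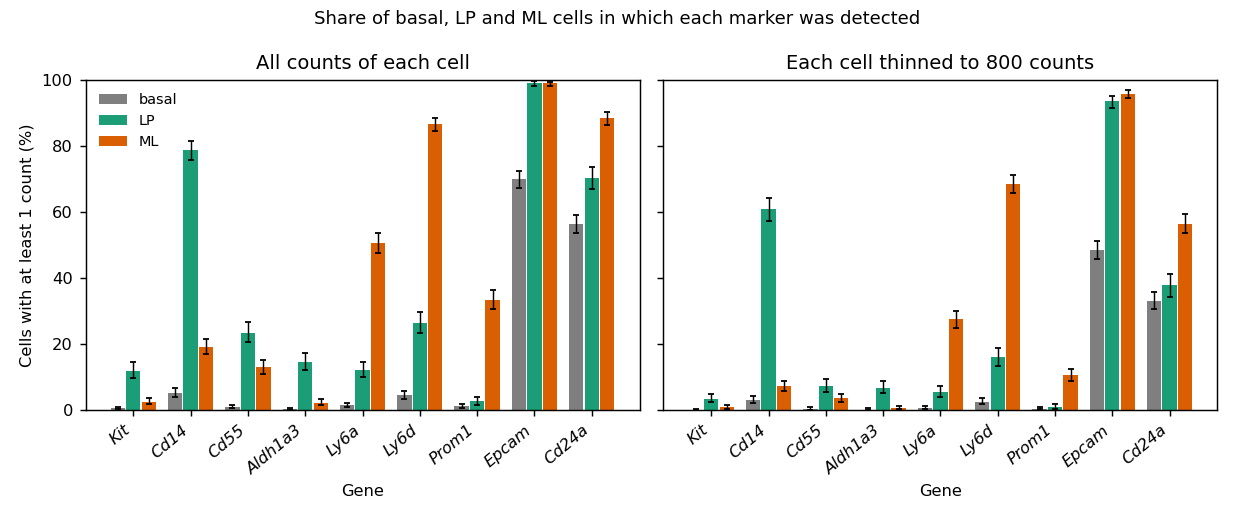
Percent of basal, LP and ML cells (bars, with exact 95% binomial intervals) with at least 1 count of each marker, from all counts (left) and after thinning each cell to 800 counts (right). Cd14 stays in 60.7% of LP cells and Ly6d in 68.5% of ML cells after thinning, while Kit falls from 11.9% to 3.39% of LP cells.

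Ratios of the summed levels were set against all genes measured in the same way. A gene was called when it differed at least 2-fold, among the 8950 genes with at least 30 counts in LP and ML cells together; 9.75% of them were called higher in LP cells and 17% higher in ML cells. Of the 9 markers, 4 were called higher in LP cells, 4 higher in ML cells and Epcam was under 2-fold. Aldh1a3 was 10.9-fold (7.77 to 15.7), Cd14 9.63-fold (9.03 to 10.3), Kit 6.83-fold (4.52 to 10.6) and Cd55 2.45-fold (2.01 to 2.98) higher in LP than in ML cells. In the other direction Prom1 was 17.3-fold (11.1 to 28.5), Ly6d 8.15-fold (7.60 to 8.75), Ly6a 6.09-fold (5.28 to 7.07) and Cd24a 2.24-fold (2.11 to 2.37) higher in ML cells. The ratio of Epcam in LP to ML cells was 1.18 (1.15 to 1.21). The median log2 ratio of all tested genes was -0.29, towards ML cells. The size of the mature-linked ratios rested on where the classes were divided. Between an ML limit of 20 counts and LP cells with few or no counts of the ML genes, the ratio of ML to LP cells ran from 5.69 to 74.5 for Prom1, from 3.64 to 20.8 for Ly6d and from 2.66 to 19.5 for Ly6a. The 116 LP cells with 3 to 9 counts of the ML genes had 53.0 CPM of Prom1, 1696 of Ly6d and 434 of Ly6a, against 2.15, 177 and 38.8 in the other 650 LP cells. The ratio of LP to ML cells ran from 4.27 to 10.1 for Kit, from 8.02 to 17.2 for Cd14 and from 9.59 to 18.1 for Aldh1a3 over all alternatives, with the ends that lay over 1.5 times away reached by thinning.

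Against basal cells, with LP and ML cells pooled, 8 of the 9 markers were at least 2-fold higher in luminal cells, where 16.9% of 10096 genes were higher in luminal and 16.7% higher in basal cells. Aldh1a3 was 39.4-fold (13.3 to 192) higher in luminal cells, Ly6a 15.8-fold (12.5 to 20.2), Prom1 15.9-fold (10.1 to 26.5), Ly6d 14.1-fold (12.8 to 15.5), Cd55 12.3-fold (7.39 to 22.2), Cd14 9.37-fold (8.38 to 10.5), Kit 8.64-fold (4.08 to 21.9) and Epcam 4.05-fold (3.91 to 4.2). Cd24a was at 1.95-fold (1.85 to 2.06). The wide interval of Aldh1a3 rests on only 3 counts in basal cells.

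**Figure D3:**
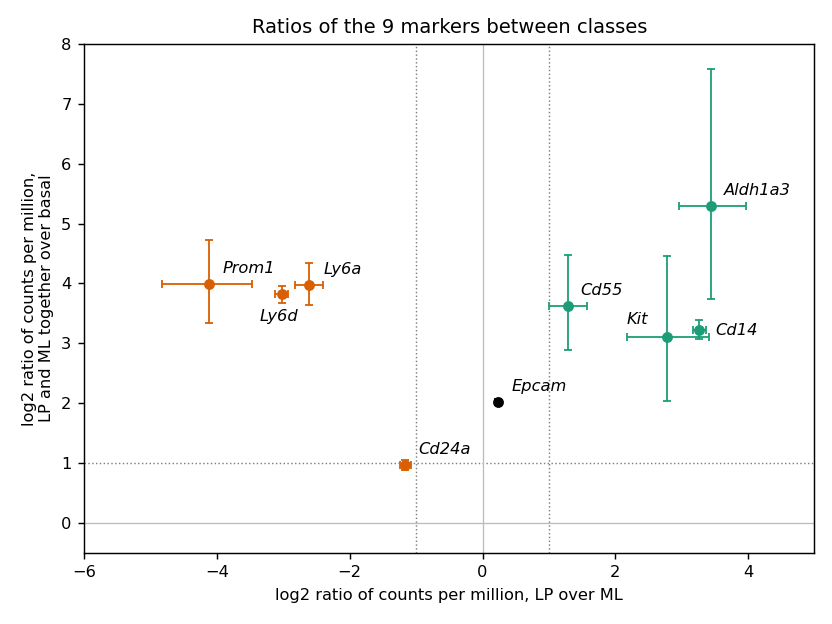
Each marker by its log2 ratio of CPM in LP over ML cells (horizontal axis) and in LP and ML cells together over basal cells (vertical axis), with exact 95% intervals; dotted lines mark 2-fold. Kit, Cd14, Cd55 and Aldh1a3 lie to the right, Ly6a, Ly6d, Prom1 and Cd24a to the left, and only Epcam is within 2-fold between the luminal classes.

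Genes that act with the markers were listed as well. The proteins that work with CD14 in sensing bacterial products were higher in LP cells in 3 of 3 genes with enough counts, of 4 listed: Lbp, the lipopolysaccharide-binding protein, was 9.86-fold (7.88 to 12.5), the receptor Tlr2 5.84-fold (3.43 to 10.4) and the receptor Tlr4 2.68-fold (1.32 to 5.59) higher. Tlr2 was not particular to LP cells, at 26.9 CPM there and 24.5 in basal cells. Ly96, the co-receptor of TLR4, had 1 count in LP and 3 in ML cells and was not tested. Of the 6 genes for the KIT ligand and its adaptors, 5 were tested and none reached 2-fold between LP and ML cells. Kitl, the ligand of KIT, was at 140.4 CPM in LP and 116 in ML cells, and was 3.63-fold (3.31 to 3.97) higher in basal than in luminal cells.

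In the retinoic acid pathway 7 of 14 genes were tested, of which 3 were higher in LP cells and 1 in ML cells. Besides Aldh1a3, the binding protein Crabp2 (7.03-fold, 5.70 to 8.74) was higher in LP cells. Dhrs3, which returns retinal to retinol, was the gene higher in ML cells, with 143 CPM against 53.7 in LP cells. The related genes Aldh1a1 and Aldh1a7 were near absence, with 0 counts of Aldh1a1 in LP and 5 in ML cells and 1 and 7 counts of Aldh1a7.

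Among 10 LY6 and related genes, 8 were tested, and 5 were higher in ML and 2 in LP cells. Ly6c1, at 48.6 CPM in ML and 6.95 in LP cells, Ly6k, at 42.6 and 14.8, and Ly6g6c, at 7.02 and 0.463, went with Ly6a and Ly6d. Lypd3 (3.62-fold, 3.19 to 4.11) and the complement regulator Cd59a (3.51-fold, 2.90 to 4.26) were higher in LP cells, and Ly6e was under 2-fold. Cd59a was at 143 CPM in LP cells and at 149 in basal cells. Ly6c1 is also made by blood vessel cells, and the endothelial list summed to 21.3 CPM in ML and 8.34 in LP cells, beside the fibroblast list at 1419 and 83.4, a part that was not tested. Of the complement control genes with enough counts, Cd55 and Cd59a were higher in LP cells and Cr1l was under 2-fold, with a ratio of 0.905 (0.782 to 1.05).

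Of 10 other surface markers used to sort mammary cells, 6 had enough counts. The mucin Muc1 (11.2-fold, 7.98 to 16.2), the tetraspanin Tspan8 (9.91-fold, 8.36 to 11.8) and the hyaluronan receptor Cd44 (8.27-fold, 5.45 to 13.0) were higher in LP cells. Cd44 was not particular to LP cells, at 56.1 CPM there and 33.1 in basal cells. Itgb1, which encodes CD29, and Itga6 were under 2-fold between LP and ML cells. In basal cells Itgb1 was 2.89-fold (2.65 to 3.14) and Itga6 6.67-fold (5.74 to 7.78) higher than in luminal cells. Prom2, the relative of Prom1, was at 86.1 CPM in ML and 7.88 in LP cells, in the same direction as Prom1.

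Co-detection asked how often 2 markers were counted in the same cell. Because deep cells tend to detect more genes, the number expected was taken from the shares of both genes within 5 strata of equal cell number by depth, with independence inside each stratum. A pair was called high when the observed number was at least 25% above and low when it was at least 20% below the expected one, among genes found in at least 5% of the cells. In LP cells this was so at the high end for 14.3% and at the low end for 12.7% of 11551221 gene pairs, and for 7.96% and 6.7% when at least 10 joint cells were expected. Among 28 marker pairs in LP cells, 1 was high and 7 were low. Pairs with Epcam, found in 99.0% of LP cells, could reach neither the high nor the low limit. For them the shares of all gene pairs are not a like comparison.

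The progenitor-linked markers occurred together at 0.909 to 1.23 times the number that independence within depth strata gives. Cd14 was in 78.7% of LP cells, so its pairs with Kit, Cd55 and Aldh1a3 could not reach the limit of a high pair. Cd14 and Cd55 were joined in 161 LP cells (21.0%, 18.2 to 24.1) where 151 were expected, a ratio of 1.06 (0.921 to 1.22). Without the depth strata this ratio was 1.14. Cd55 was found in 26.7% (23.2 to 30.4) of LP cells with Cd14 and in 11% (6.68 to 16.9) of those without it. Kit and Cd14 were joined in 87 cells against 76.5 expected (1.14, 0.921 to 1.38), so that 87 of the 91 cells with Kit also had Cd14. Without regard to depth, Cd14 was found in 95.6% (89.1 to 98.8) of LP cells with Kit and in 76.4% (73.1 to 79.6) of those without it. Cd14 and Aldh1a3 shared 101 cells (1.08, 0.893 to 1.30), Kit and Aldh1a3 shared 19 (1.23, 0.743 to 1.91), Kit and Cd55 shared 26 (1.02, 0.673 to 1.49), and Cd55 and Aldh1a3 shared 28 (0.909, 0.607 to 1.30). The intervals of all 6 pairs held 1, and none was called. These intervals do not hold the numbers of cells with each gene fixed and can run past the largest possible ratio. An interval that holds 1 therefore does not show independence.

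By contrast, 7 of the 8 pairs of a progenitor-linked marker with Ly6a or Ly6d were low in LP cells. Cd14 and Ly6a met in 46 cells where 72.5 were expected (0.635, 0.468 to 0.838), and Cd14 and Ly6d met in 114 where 156 were expected (0.733, 0.612 to 0.866). The ratios were 0.583 for Aldh1a3 and Ly6a, 0.608 for Kit and Ly6d, 0.670 for Aldh1a3 and Ly6d, 0.722 for Kit and Ly6a and 0.753 for Cd55 and Ly6a, each on 8 to 19 joint cells and with an interval that held 1. Cd55 and Ly6d were the exception, with 46 joint cells and a ratio of 1.0 (0.738 to 1.32). Ly6a and Ly6d formed the high pair, together in 54 LP cells where 25.0 were expected (2.16, 1.64 to 2.79). Prom1, in 20 LP cells, was too rare for a call, and 13 of these cells had Ly6d while 4 had Cd14.

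Most of this pattern moved with the cells of the LP class that carried some counts of the ML genes. In the 116 LP cells with 3 to 9 counts of Prlr, Stc2 and Gpx3, Ly6d was found in 72.4% (63.3 to 80.3), Ly6a in 40.5% (31.5 to 50) and Cd14 in 31.0% (22.8 to 40.3). In the 650 LP cells with 0 to 2 such counts the shares were 18.0% (15.1 to 21.2), 6.92% (5.09 to 9.15) and 87.2% (84.4 to 89.7). Within those 650 cells the ratio of Cd14 with Ly6a was 0.911 (0.646 to 1.24), of Cd14 with Ly6d 0.958 (0.790 to 1.15) and of Ly6a with Ly6d 1.26 (0.629 to 2.23), on 11 joint cells and just past the limit of a high pair. In the 448 LP cells with no count of the ML genes, Ly6a and Ly6d met in 4 cells at a ratio of 1.02 (0.278 to 2.58). The pair of Cd14 and Cd55 was at 1.01 (0.869 to 1.16) in the 650 cells and at 0.985 (0.808 to 1.18) in the 448, so it stayed near 1 in each. With Cd14 in 87.2% of the 650 cells, this ratio had little room above 1. The cells on either side of the ML limit were alike in Ly6d and Ly6a. Below it were 50 cells outside the basal class with sums of 7 to 9, taken without the keratin condition. Above it were 70 ML cells with sums of 10 to 12. Ly6d was found in 88% and 90% of them and Ly6a in 48% and 54.3%. Cd14 was found in 22% and 10% and Prom1 in 12% and 18.6%, with Prom1 at 48.4 and 93.2 CPM.

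In ML cells, 21 pairs had both markers in at least 5% of cells, and none was called high or low. Epcam, Cd24a and Ly6d were in 98.9%, 88.3% and 86.6% of ML cells, so no pair with them could reach the high limit. The low limit was also out of reach for pairs with Epcam and for the pairs of Ly6a, Ly6d and Cd24a with each other. The shares of all gene pairs that follow are therefore not a like comparison for these markers. The share of all 17407950 gene pairs called in ML cells was 8.55% at the high and 9.2% at the low end, and 5.76% and 6.22% with at least 10 joint cells expected. Ly6a and Ly6d were together in 538 ML cells (47.5%) where 499 were expected, a ratio of 1.08 (1.01 to 1.15). Ly6d was found in 93.9% (91.6 to 95.7) of ML cells with Ly6a and in 79.1% (75.5 to 82.4) of those without it. Ly6a and Prom1 shared 207 cells (1.06, 0.931 to 1.2), and Ly6d and Prom1 shared 345 (1.05, 0.954 to 1.14). Cd14 was found with Ly6d in 188 ML cells at a ratio of 0.981 (0.855 to 1.12) and with Prom1 in 63 at 0.818 (0.632 to 1.04). Cd14 and Cd55 were joined in 43 ML cells (1.09, 0.789 to 1.45), where the ratio without depth strata was 1.54.

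Kit and Aldh1a3 were in under 5% of ML cells and are given as counts. Of the 28 ML cells with Kit, 21 had Cd14 where 10.3 were expected, 6 had Aldh1a3 where 1.40 were expected and 9 had Cd55 where 5.79 were expected. Of the 25 ML cells with Aldh1a3, 16 had Cd14 where 8.85 were expected and 3 had Prom1 where 8.71 were expected. These cells still had mature-linked markers, with Ly6d in 26 of the 28 cells with Kit and in 21 of the 25 with Aldh1a3.

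**Figure D4:**
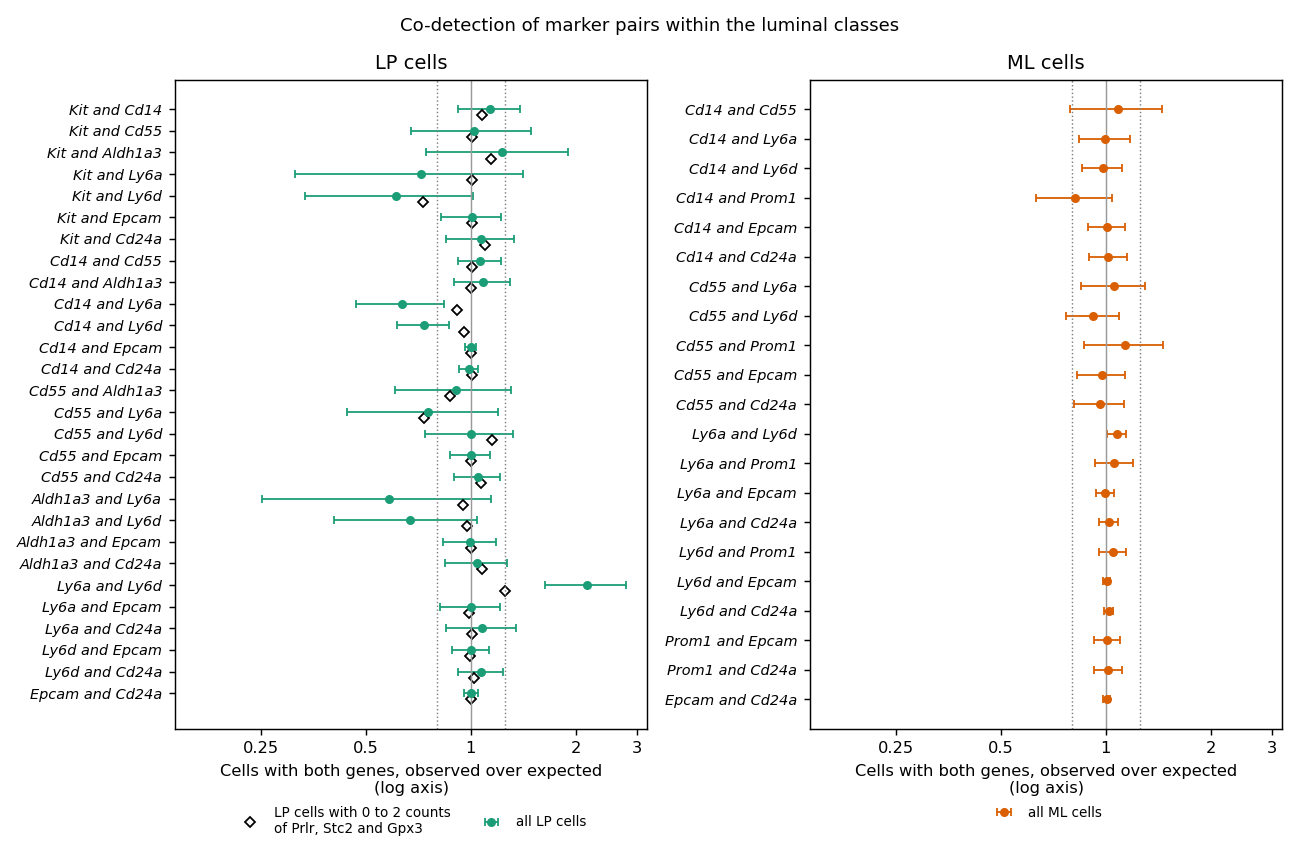
Observed over expected number of cells with both markers of a pair (log axis) in LP cells (left) and ML cells (right), with exact 95% intervals that treat the expected number as fixed; dotted lines mark 20% below and 25% above the expected number, and open diamonds show the 650 LP cells with 0 to 2 counts of Prlr, Stc2 and Gpx3. Ly6a and Ly6d stand at 2.16 in all LP cells and at 1.26 in the narrower set, and all ML pairs lie between the dotted lines.

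Combinations showed how few cells carried a full set. Of the 766 LP cells, 316 (41.3%) had Cd14 as the only one of the 4 progenitor-linked markers, 117 (15.3%) had Cd14 with Cd55, 64 had Cd14 with Aldh1a3, 50 had Kit with Cd14, 6 had all 4 and 134 (17.5%) had none. Cells with Kit, Cd55 or Aldh1a3 but no Cd14 were few: 15 had Cd55 alone, 8 Aldh1a3 alone, 3 Kit alone and 3 a combination of these. Of the 1133 ML cells, 338 (29.8%) had Ly6a with Ly6d, 298 (26.3%) Ly6d alone, 200 (17.7%) all 3 mature-linked markers, 145 (12.8%) Ly6d with Prom1 and 91 (8.03%) none. Of the 1899 luminal cells, 204 (10.7%, 9.38 to 12.2) had both Cd14 and Cd55, of which 161 were LP and 43 ML cells, and 121 had Cd55 without Cd14, of which 103 were ML cells.

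Progenitor-linked and mature-linked markers were also found in the same cell. In the LP class 155 cells (20.2%, 17.4 to 23.3) had at least 1 of each kind, and in the ML class 304 cells (26.8%, 24.3 to 29.5). These cells were deeper than the rest, with median depths of 3108 counts against 2483.5 for the LP class and 4543 against 3403 for the ML class. Thinned to 800 counts, the shares fell to 5.87% (4.32 to 7.78) in LP and 7.41% (5.96 to 9.10) in ML cells, against 0.153% in basal cells. Droplets that held 2 cells were not called, and their part in these numbers was not tested.

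**Figure D5:**
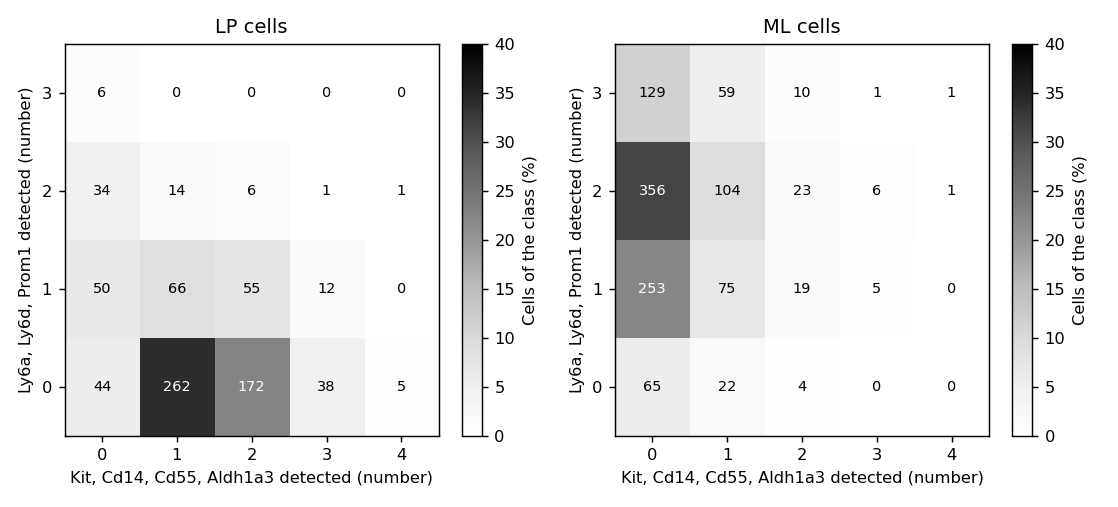
Number of cells (printed) and percent of the class (shading) by how many of Kit, Cd14, Cd55 and Aldh1a3 (horizontal axis) and of Ly6a, Ly6d and Prom1 (vertical axis) were detected in a cell, for LP (left) and ML (right). In LP cells 262 had 1 progenitor-linked and no mature-linked marker, and in ML cells 356 had 2 mature-linked and no progenitor-linked marker.

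Across depth strata of ML cells, Cd14 changed more than the mature-linked markers. From the shallowest to the deepest of 5 strata of ML cells, Cd14 was found in 6.61%, 5.29%, 13.3%, 23.3% and 47.3% of cells, and its level went from 58.0 CPM in the shallowest and 40.9 in the next to 622 in the deepest. Why the level of Cd14 was higher in the deepest ML cells was not tested. Ly6d was found in 79.3% of the shallowest and 88.9% of the deepest ML cells, while its level was 3477 CPM in the shallowest and 2400 in the deepest. The level of Cd14 in LP cells had no such course. It was at 2622 CPM in the shallowest, 3350.4 in the middle and 2626 in the deepest stratum. Ly6d in LP cells was at 950.0 CPM in the shallowest and 208 in the deepest stratum. The count limits of the division were the same at every depth, however. The 116 LP cells with 3 to 9 counts of the ML genes had a median depth of 1926 counts. That of the LP class was 2483.5. Ly6d stood at 1696 CPM in those 116 cells and at 177 in the other 650 LP cells. The part of the division in the course of Ly6d with depth was not tested.

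The cells with a marker were then compared with the others of their class for genes that neither the markers nor the division had used. In LP cells with Cd14, Lcn2, a siderophore-binding defence protein, was 3.04-fold (2.81 to 3.29), Csn3, a casein, 2.63-fold (2.46 to 2.81) and Trf, the iron carrier transferrin, 2.28-fold (2.23 to 2.34) the level of LP cells without Cd14. Areg and Cited1, a growth factor and a cofactor of mature luminal cells, stood at 54.3 and 37.8 CPM in LP cells with Cd14 and at 767 and 1012 CPM in those without. LP cells with Ly6d showed the mirror image, with Cited1 22.5-fold (16.5 to 31.3) and Areg 13.1-fold (9.94 to 17.4) higher than in LP cells without Ly6d.

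These LP cells differed in the genes of the ML condition as well: with Cd14, Prlr stood at 83.4 CPM, Stc2 at 49.9 and Gpx3 at 93.8, against 609, 528 and 478 without it, and with Ly6d at 390.2, 349 and 367 against 86.3, 45.6 and 78.8.

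LP cells with Cd55, Aldh1a3 or Kit were also low in Cited1 and Areg of the mature luminal list. Cited1 and Areg stood at 20.8 and 56.1 CPM with Cd55 against 257 and 209 without, at 5.22 and 23.5 with Aldh1a3 against 229 and 195 without, and at 12.7 and 19.1 with Kit against 219 and 189.8 without. For Cd55, Csn3 was 1.16-fold (1.12 to 1.2), Trf 1.19-fold (1.17 to 1.2) and the Notch target Hey1 1.48-fold (1.2 to 1.81) the level of LP cells without Cd55. The progenitor factor Elf5 was level, at 370.1 and 375 CPM. In LP cells with Aldh1a3, Ltf, the iron-binding defence protein lactoferrin, was 2.55-fold (2.42 to 2.69) and Mfge8, a milk fat globule protein, 1.33-fold (1.28 to 1.39) higher, while Csn3 was at a ratio of 0.926 (0.885 to 0.967). LP cells with Kit had Wfdc18 at 1.56-fold (1.34 to 1.81) and Ltf at 1.29-fold (1.21 to 1.38) of the level in those without. Wfdc18 and Ltf had the largest ratios of the progenitor luminal list for Kit. Mfge8 was at a ratio of 1.18, Plet1 at 1.13 and Csn3 at 1.10. Trf was at 1.005 (0.987 to 1.02) and Lcn2 at 1.01 (0.956 to 1.06). Elf5 was at 0.906 (0.733 to 1.11) and Hey1 at 0.845 (0.619 to 1.13). Wnt4 of the mature luminal list went the other way, at 9.54 CPM with Kit and 4.88 without, on 3 and 9 counts. The genes of the ML condition differed too: with Kit, Prlr stood at 66.8 CPM, Stc2 at 41.4 and Gpx3 at 76.3, against 182, 138 and 166 without.

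In ML cells the presence of Ly6a went with smaller differences. Areg had a ratio of 0.962 (0.929 to 0.997) and Cited1 of 0.940 (0.890 to 0.992) between ML cells with and without Ly6a, and Trf was 1.36-fold (1.32 to 1.41) higher in those with it. ML cells with Prom1 had Areg at 1.24-fold (1.2 to 1.29) and Ltf at a ratio of 0.517 (0.450 to 0.593). The 217 ML cells with Cd14 stood out, with Ltf 45.3-fold (35.7 to 58.3), Lcn2 30-fold (25.9 to 35.0), Trf 22.5-fold (21.4 to 23.6) and Csn3 16.5-fold (14.8 to 18.5) above other ML cells. Their Cited1 was at a ratio of 0.883 and their Areg at 0.676, and their median depth was 4855 counts against 3147.5 for the others.

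Across the 1899 luminal cells, the genes most like each marker were ranked by the correlation of log-scaled counts among 5637 genes found in at least 5% of the cells. The cells shared 1 library and differed in depth, so these correlations are descriptions. Cd14 was followed most closely by Lcn2 (r = 0.789), Trf (0.785) and Mfge8 (0.740). Ly6d was followed by Ptn, which encodes the growth factor pleiotrophin (0.704), Wfdc2 (0.640) and Stc2 (0.615), the last a gene of the ML condition. Ly6a had Ly6d (0.483), Ptn (0.396) and Prlr (0.367) nearest, and Prom1 had Cxcl15 (0.378), Ptn (0.365) and Tmed3 (0.358). For Cd24a the nearest were Ly6d (0.346), Tmed3 (0.331) and Wfdc2 (0.324). The values of the sparse genes Kit, Cd55 and Aldh1a3 stayed low, with Cxcl1 (0.260) nearest Kit, Igfbp5 (0.251) nearest Cd55 and Ltf (0.320) nearest Aldh1a3. Epcam was nearest to the keratins Krt18 (0.277) and Krt8 (0.267).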

How the data were processed

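Single-cell counts of 2 Chromium 3' libraries of adult mouse mammary cells were analysed. The authors deposited whole-number counts of unique molecules per gene and cell, not normalized; the submitters' processing notes name Cell Ranger 1.2.1 and mm10, while the methods of the study name version 2.0 of the same program. The total epithelial library held 9227651 counts and the sorted basal library 2488704, at 137 to 1946 per cell. The libraries shared 28 barcodes. All cells were used and no doublet caller was run: cells that met both the basal and the ML condition were counted, and the deepest 5% of each class were left out in an alternative.

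From these counts, summed CPM with exact Poisson intervals, shares of cells with exact Clopper-Pearson intervals, and ratios with exact conditional binomial intervals were computed with Python 3.11.15, numpy 2.4.6 and scipy 1.17.1, and drawn with matplotlib 3.10.9. There was 1 library per condition and cells are not replicates, so no test was made. A share of 0 allows up to 3 counts of the total. Scripts were tested on simulated data. Gene positions are from GENCODE M21. The 9 markers and all lists were chosen with earlier results of these data known. Genes are named from fixed lists, or as the 3 genes with the largest correlation with each marker. Some members of these lists are counted but not reported here by name.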

Additional observations from a re-analysis of the deposited data

How the results depend on the processing

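The count of markers at least 2-fold higher in LP cells stayed at 4 in all 16 alternatives, and Cd55 came closest to the limit, with a ratio of 2.03 after thinning to 800 counts. With an ML cut of 20 counts Cd24a fell under 2-fold, which gave 2 markers under 2-fold. The number of marker pairs called in LP cells depended on where LP and ML cells were divided. The low pairs were 1 with an ML cut of 5 counts, 12 with an ML cut of 20, 2 in LP cells with 0 to 2 counts of Prlr, Stc2 and Gpx3, 1 in LP cells with none (chosen after seeing the data) and 4 with detection at 2 counts or more. The high pairs were 6 with an ML cut of 20, 5 after thinning to 800 counts, and 2 with a basal cut of 20, with 1 depth stratum and in LP cells with none of the ML genes. In ML cells, 1 low pair appeared with an ML cut of 5 or of 20 counts, with thinning to 800 counts and with detection at 2 counts or more, and 1 high pair appeared with 1 depth stratum and 2 with thinning to 1500 counts. Ratios of low pairs crossed 1 for Kit and Ly6a (1.01 with 0 to 2 counts of the ML genes), for Cd55 and Ly6a (1.41 after thinning to 800 counts and 1.17 with no count of the ML genes) and for Aldh1a3 and Ly6a (1.31 with no count of the ML genes), each on 4 to 7 joint cells. The cause of these changes was not tested. No paired analysis was possible because each group has 1 library, and no library could be left out. Leaving out ML cells with fewer than 3 keratin counts, also chosen after seeing the data, changed no count by more than 1.5 times. Kit, Cd55, Aldh1a3 and Prom1 are limited by depth, since most cells with them had 1 or 2 counts.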

Other observations

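Some markers were also found outside the epithelial classes. Of the 97 unclassified cells, 35 had 3 or more counts of the fibroblast list (collagens, Dcn, Lum and Pdgfra), 23 of the endothelial, 18 of the pericyte and 13 of the Schwann cell list, and 31 of none of these, with 18 cells counted under more than 1 list. Ly6a stood at 863 CPM (725 to 1019) in unclassified cells, above its 573 in ML cells, and was counted in 13 of the 35 fibroblast-list cells and in 15 of the 23 endothelial-list cells. Cd55 stood at 144 CPM (91.1 to 216) and Aldh1a3 at 138 (86.2 to 208) in unclassified cells. In LP cells they stood at 109 and 106, with overlapping intervals. Cd55 was counted in 9 and Aldh1a3 in 6 of the fibroblast-list cells, while Ly6d had 1 count in the unclassified cells and Kit none. The limit of 3 counts gives 18.8 CPM for Kit there, and the exact interval reached 23.1. Epcam was found in 11.3% and Cd24a in 18.6% of unclassified cells, although the gate had asked for CD24 protein.

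In the sorted basal library, whose cells had a median depth of 487 counts, the 7 progenitor-linked and mature-linked markers were counted in 0.0629% (Kit) to 0.796% (Cd14) of the 4771 cells. In the 1758 cells that met the basal condition, Kit and Aldh1a3 had no count. The limit of 3 counts gives 2.5 CPM for each, and the exact interval reached 3.08. Cd14 stood at 7.5 CPM (3.43 to 14.2) in these cells, against 117 in the basal class of the total epithelial library. Ly6d stood at 3.34 CPM (0.909 to 8.54) in the sorted cells against 157 in the unsorted basal class, and Epcam at 788 (739 to 840) against 1234. The 2 libraries differ in sort and depth, which cannot be told apart here.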
